A study of Homo sapiens with 24 samples.

Results

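The human genes for proteins with a cold shock domain were followed through 24 RNA sequencing libraries of pluripotent stem cells and day 2 ectoderm. The 7 genes were CARHSP1, CSDC2, YBX1, YBX2, YBX3, LIN28A and LIN28B. They were taken by gene symbol, as CARHSP1 and its relatives, and each was present as 1 row of the 60671 genes in both count tables. The libraries fell into 8 groups of 3. In the line H1 these were CARHSP1 knockdown and nontargeting (NT) primed cells, ZNF8 knockdown and NT naive cells, and ZIC2 knockdown and NT cells differentiated to ectoderm and taken at day 2. In the line H9 they were naive and primed cells, with no construct in the labels. Both lines derive from human embryos and are long established. Primed cells resemble the epiblast after implantation, and naive cells the epiblast before it. Doxycycline is listed for all 18 H1 libraries, controls included, and not for the 6 H9 libraries. The knockdown agent and the number of clones are not given in the labels, which name 1 medium, StemFlex, for every sample, naive ones included.

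The cold shock domain is a small barrel-shaped fold that binds single-stranded nucleic acid, shared with bacterial cold shock proteins. LIN28A and LIN28B carry it beside zinc knuckles and bind the precursors of let-7 microRNAs, whose processing they block. They are marks of pluripotent and early embryonic cells. YBX1, YBX2 and YBX3 package messenger RNA into ribonucleoprotein particles, and YBX2 is best known from germ cells. CARHSP1 and CSDC2 are short proteins that carry the domain, and CARHSP1 is known as a phosphoprotein that stabilises messenger RNA in immune cells.

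The sequences that connect the LIN28 pair with let-7 are shown first. The RefSeq table for GRCh38.p14 held 12 hairpins of the human let-7 family with 9 distinct mature 5′ arms, all with the same seed. Capitals mark the seed, bases 2 to 8 of the mature strand, in 4 of them.
let-7a-5p: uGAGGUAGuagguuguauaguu
let-7b-5p: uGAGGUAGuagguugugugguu
let-7g-5p: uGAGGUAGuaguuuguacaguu
miR-98-5p: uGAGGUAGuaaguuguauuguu
The zinc knuckles of LIN28 proteins are known to bind the letters GGAG in the precursor. This motif was searched on the transcribed strand, starting after the end of the 5′ mature strand and no later than the first base of the 3′ mature strand. It was in 9 of the 12 hairpins and not in 3. One hairpin of each kind is shown, with the motif in capitals.
let-7g hairpin, chr3:52268278-52268361, minus strand: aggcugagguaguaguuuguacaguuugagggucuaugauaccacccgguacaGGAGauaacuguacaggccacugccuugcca
let-7b hairpin, chr22:46113686-46113768, plus strand: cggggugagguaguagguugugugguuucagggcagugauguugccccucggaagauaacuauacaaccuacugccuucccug
These microRNAs themselves were not measured, since libraries of polyadenylated RNA do not count mature microRNAs.

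The seed pairs with the letters CTACCTC, and CTACCTCA adds the base opposite the first letter of the microRNA. The 3′ untranslated region of the longest complete coding transcript in GENCODE 29 was searched on the transcript strand. LIN28B held 4 sites in 4549 bases, of which 2 had all 8 letters, LIN28A held 1 in 3264 bases and YBX2 held 1 in 431 bases. CARHSP1, CSDC2, YBX1 and YBX3 held none in this window. The same search found the shorter site in 14 of 22 genes known as let-7 targets, and in neither HMGA2 nor CCND1, so a known target can be without a match in the transcript searched. Of all 19509 coding genes, 9.22% held the shorter site. Among regions within 20% of the same length the share was 23.1% for LIN28B, 16.3% for LIN28A and 2.87% for YBX2. The sites are given with 14 bases before the match and in capitals where they match.
LIN28B site 1, chr6:105078813-105078834, plus strand: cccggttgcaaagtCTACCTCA
LIN28B site 2, chr6:105081240-105081261, plus strand: actgatgatagtaaCTACCTCt
LIN28B site 3, chr6:105081422-105081443, plus strand: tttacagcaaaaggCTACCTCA
LIN28B site 4, chr6:105082861-105082882, plus strand: aatgatggtgttgaCTACCTCt
LIN28A site, chr1:26427349-26427370, plus strand: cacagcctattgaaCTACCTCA
YBX2 site, chr17:7288322-7288343, minus strand: tttcccccggccccCTACCTCt
A match of letters is a description and was not tested for binding.

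Depth ran from 6756704 to 20773963 counts a library. CARHSP1 had 20.8, 18.1 and 18.4 CPM (counts scaled to the library's size) in CARHSP1 knockdown cells and 152, 148 and 148 CPM in NT primed cells. ZIC2 had 262, 263 and 272 CPM in ZIC2 knockdown ectoderm and 617, 548 and 495 CPM in NT ectoderm. ZNF8 had 15.3, 15.4 and 17.7 CPM in ZNF8 knockdown cells and 23.2, 18.6 and 17.7 CPM in NT naive cells, a log2 difference of −0.32 ± 0.13 (SE) that did not pass the test (edgeR adjusted p = 0.0664). Summed CPM of 7 naive markers ranged from 238 to 243 in ZNF8 knockdown cells, against 322 to 338 in NT naive cells and 31.9 to 37.2 in NT primed cells. SUSD2 (means of 91.8 with ZNF8 knockdown and 117 CPM in NT naive cells), KLF4 (89.6 and 94.4) and TFCP2L1 (41.0 and 45.3) weigh heavily in these sums. Scarcer markers differed more, with DNMT3L at 16.0 and 53.1 CPM, KLF17 at 1.49 and 10.7, DPPA5 at 1.13 and 7.57 and ARGFX at 0.734 and 2.90. In naive H9 cells the 7 markers summed to 101 to 111 CPM, with KLF17 and ARGFX at a mean of 0.0693 and 0.0302 CPM, against 23.6 to 28.4 CPM in primed H9 cells. Ectoderm libraries had 5 of 6 neural markers at 1 CPM or more in both groups. LHX2 was at 0 in ZIC2 knockdown ectoderm and at a mean of 0.121 CPM in NT ectoderm. Whether replicates came from separate cultures is not stated in the labels, so the p-values reflect the spread among these libraries alone, which may be technical.

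Levels of different genes were set side by side as TPM, which divides by gene length before scaling to the library. With the deposited gene lengths, LIN28A stood above YBX1 in 22 of 24 libraries, and these were the 2 most abundant members in every group. LIN28A averaged 4101 ± 69.2 TPM in NT ectoderm, 839 ± 12.2 TPM in NT naive H1 cells and 1692 ± 15.4 TPM in NT primed H1 cells (SD, n = 3 each). YBX1 averaged 1633 ± 123 TPM in NT ectoderm, 681 ± 10.5 TPM in NT naive and 1143 ± 27.8 TPM in NT primed H1 cells. In ZNF8 knockdown cells the libraries of the 2 genes overlapped, at 646 ± 13.6 TPM for YBX1 and 624 ± 16.4 TPM for LIN28A.

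The order at the top depended on the length that was used. The deposited length of YBX1 is 3395 bases, against 1524 bases for its longest coding transcript in GENCODE 29, and that of YBX3 is 8621 against 1796 bases. For LIN28A the 2 lengths are 3975 and 4008 bases. With the length of the longest coding transcript, an alternative chosen after seeing the data, LIN28A was above YBX1 in 5 of 24 libraries, and YBX3 took the third place in all 8 groups, where with deposited lengths it held it in naive H9 cells alone. In NT primed H1 cells YBX1 then averaged 1794 ± 40.0 TPM, LIN28A 1182 ± 8.24 TPM and YBX3 372 ± 14.8 TPM (SD, n = 3 each). No firm order of YBX1 and LIN28A can therefore be given.

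Below them, with deposited lengths, NT primed H1 cells had LIN28B at 122 ± 8.0 TPM, YBX3 at 110 ± 4.21 TPM, CARHSP1 at 93.3 ± 1.30 TPM and YBX2 at 15.9 ± 1.55 TPM, each above the next in all 3 libraries. LIN28B and YBX3 overlapped in CARHSP1 knockdown cells, as did YBX2 (12.7 ± 2.03 TPM) and CARHSP1 (11.5 ± 0.990 TPM). In naive H9 cells YBX2 reached 70.4 ± 5.14 TPM and overlapped YBX3 (71.3 ± 1.07 TPM), and CARHSP1 (61.8 ± 1.23 TPM) overlapped LIN28B (59.1 ± 12.2 TPM). In primed H9 cells YBX2 was at 38.6 ± 3.63 TPM and stood below all members but CSDC2. This lower order too depended on the length. With the longest coding transcript CARHSP1 (121 ± 1.48 TPM) was above LIN28B (93.1 ± 6.21 TPM) in all NT primed H1 libraries, and YBX2 was at 32.6 ± 3.25 TPM there. In naive H9 cells YBX2 was then at 141 ± 9.72 TPM and below YBX3 (236 ± 3.86 TPM) without overlap, and in primed H9 cells YBX2 (77.0 ± 6.65 TPM) overlapped LIN28B (88.3 ± 19.9 TPM). CSDC2 was last in every group, and its libraries lay between 0 and 2.31 CPM.

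**Figure D1:**
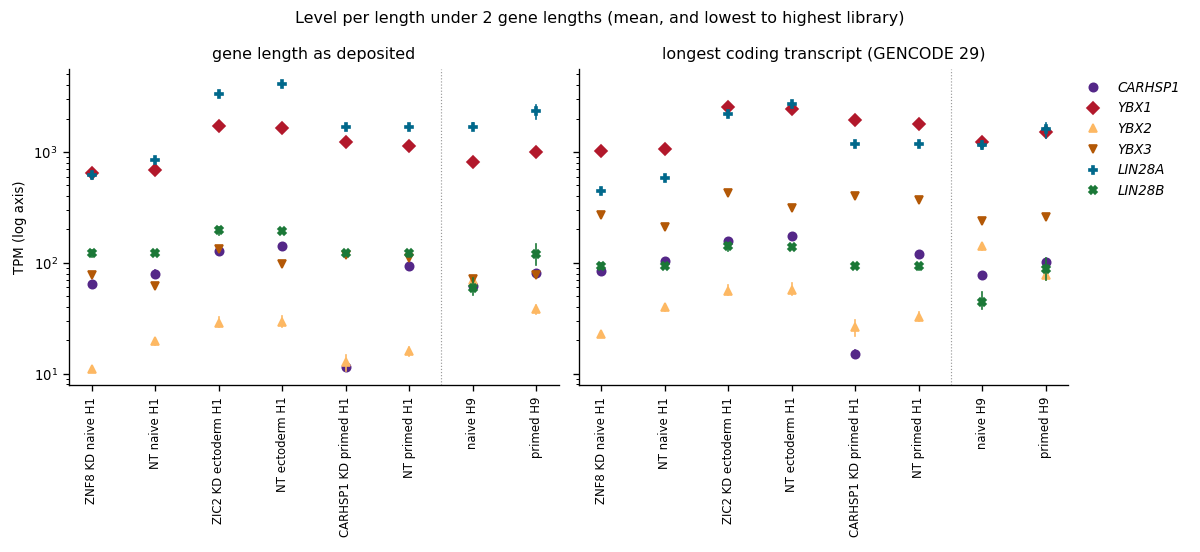
TPM on a log axis of 6 members (CSDC2 is left out) in the 8 groups, with deposited gene lengths on the left and the longest coding transcript on the right; markers are means of 3 libraries and bars run from the lowest to the highest library. YBX1 and LIN28A are the 2 highest genes in each group of both panels, and YBX3 lies higher on the right.

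The number of members that passed the test differed between the comparisons. Changes are log2 differences ± SE, first group minus second, from edgeR's quasi-likelihood test over all genes, called at an adjusted p under 0.05. With CARHSP1 knockdown 2 of 7 members were called higher and 1, CARHSP1 itself, lower, where 10.3% of all genes tested were higher and 9.87% lower. With ZNF8 knockdown 1 of 7 was higher and 3 lower, against 11.9% and 12.3% of all genes. With ZIC2 knockdown 1 of the 6 tested was higher and 2 lower, against 15.3% and 12.8%. In naive against primed H9 cells 1 of 6 was higher and 2 lower, against 25.4% and 26.1%. In naive against primed NT H1 cells 2 of 7 were higher and 4 lower, against 35.0% and 36.1%. In NT ectoderm against NT primed cells 5 of 7 were higher and 2 lower, against 30.7% and 32.1%. Many genes are called in the last 3 comparisons, so a call there says little about these members. CSDC2 was removed by the filter on low counts in the ZIC2 knockdown and H9 comparisons. The CARHSP1 knockdown, naive H1 and ectoderm comparisons share the NT primed libraries. The naive H1 and ZNF8 knockdown comparisons share the NT naive libraries, and the ectoderm and ZIC2 knockdown comparisons share the NT ectoderm libraries.

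**Figure D2:**
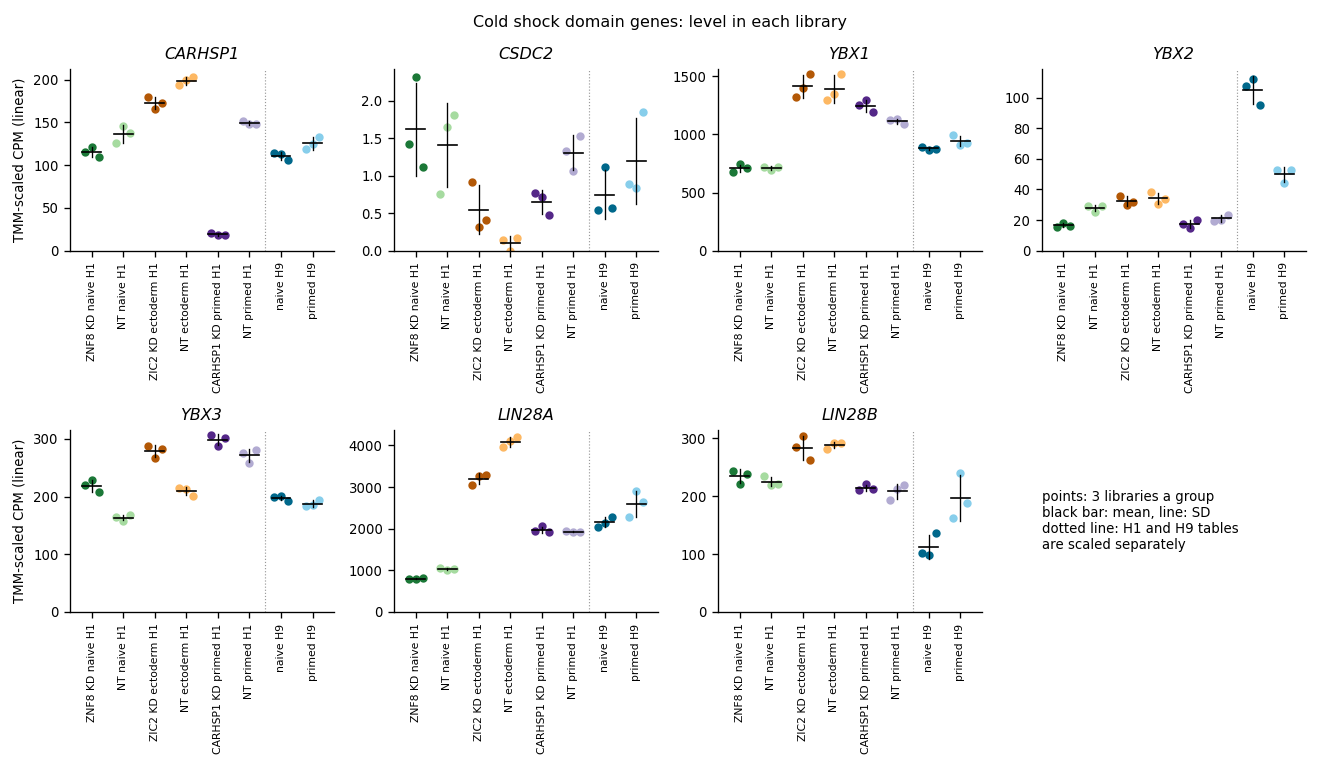
TMM-scaled CPM of each of the 7 members in each library, on linear axes from 0, with knockdown left of control and naive left of primed; bars are group means and vertical lines the SD of 3 libraries. LIN28A ranges in H1 from a mean of 802 CPM in ZNF8 knockdown cells to 4082 CPM in NT ectoderm, and YBX2 is highest in naive H9 cells at 105 CPM.

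LIN28A (GRCh38, chromosome 1, 26410778 to 26429722, plus strand) had the widest range of the members not targeted, CSDC2 apart. Its H1 group means spanned a factor of 5.09. It had 3957, 4097 and 4193 CPM in NT ectoderm, 1047, 1000 and 1031 CPM in NT naive cells and 1947, 1923 and 1913 CPM in NT primed cells. The 3 states did not overlap. LIN28A was thus 2.10-fold higher in ectoderm than in primed cells (log2 1.07 ± 0.05; edgeR adjusted p = 4.68e-18). In naive against primed H1 cells it fell by 0.91 ± 0.04 on the log2 scale (edgeR adjusted p = 4.15e-33). In bulk RNA, fewer cells with a transcript and less of it per cell cannot be told apart.

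Both knockdowns in non-primed H1 cells lowered LIN28A by a similar amount. It had 798, 795 and 814 CPM in ZNF8 knockdown cells, below all NT naive libraries (log2 −0.37 ± 0.04; edgeR adjusted p = 2.36e-08). It had 3047, 3255 and 3294 CPM in ZIC2 knockdown ectoderm, below all NT ectoderm libraries (log2 −0.35 ± 0.05; edgeR adjusted p = 2.07e-05). In both cases the naive or neural marker sum was lower in the knockdown as well, at 238 to 243 against 322 to 338 CPM for naive markers, and at 555 to 621 against 764 to 898 CPM for neural ones. OTX2 made up most of the neural sum, at a mean of 347 CPM with ZIC2 knockdown and 559 CPM in NT ectoderm. SOX1 went the other way, at 15.6 and 11.9 CPM, and SIX3 was close, at 183 and 192 CPM. The part of these marker shifts in the LIN28A result was not tested. With CARHSP1 knockdown LIN28A had 1935, 2056 and 1932 CPM, overlapping the NT primed libraries (log2 0.03, 95% interval −0.04 to 0.11; edgeR adjusted p = 0.570).

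In H9, LIN28A had 2047, 2129 and 2286 CPM in naive cells and 2276, 2896 and 2632 CPM in primed cells. The highest naive library was above the lowest primed one. The log2 difference of −0.27 ± 0.09 passed the test (edgeR adjusted p = 0.0137). It did not without primed replicate 2 (adjusted p = 0.0717), naive replicate 1 (0.0724) or naive replicate 2 (0.0508) in the same edgeR test.

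LIN28B (chromosome 6, 104936616 to 105083332, plus strand), the paralogue that also acts on let-7, varied less in H1. It had 282, 293 and 291 CPM in NT ectoderm, 234, 219 and 221 CPM in NT naive cells and 194, 212 and 219 CPM in NT primed cells. The ectoderm libraries were above all primed ones (log2 0.46 ± 0.06; edgeR adjusted p = 5.35e-08), and the difference was 0.20 with GC and length trends removed. The naive H1 libraries lay just above the primed ones (log2 0.11 ± 0.05; edgeR adjusted p = 0.0464). It was not called without NT primed replicate 1 (edgeR adjusted p = 0.399), NT primed replicate 2 (0.0621) or NT naive replicate 1 (0.167), without the filter on low counts (0.0544), in 1 fit over all H1 groups (0.0875), and with GC and length trends removed (0.485). DESeq2 gave no call either (adjusted p = 0.0714).

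In H9, LIN28B was lower in naive cells, at 102, 98.8 and 137 CPM, against 163, 241 and 188 CPM in primed cells. All naive libraries were below all primed ones, and the fall was 1.75-fold (log2 −0.80 ± 0.13; edgeR adjusted p = 4.63e-05). No knockdown gave a call for LIN28B, with a log2 change of 0.04 for CARHSP1 (95% interval −0.06 to 0.15), 0.05 for ZNF8 (−0.06 to 0.16) and −0.03 for ZIC2 (−0.16 to 0.10). The antisense neighbour LIN28B-AS1 stayed at a mean of 0.644 to 1.47 CPM in all groups.

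Of 22 genes known as let-7 targets, LIN28B among them, 15 were lower and 1 higher in naive H9 cells, where 26.1% of all genes tested were lower and 25.4% higher. Their median log2 change was −0.45, against 0.00 for all genes tested. In naive H1 cells 14 were lower and 6 higher, where 36.1% of all genes were lower and 35.0% higher, with a median of −0.51, against 0.00 for all genes tested. Of the 22, 12 were lower in both lines, 1 was higher in both and 2 changed in opposite directions. HMGA2, a chromatin protein of early embryonic cells whose H9 values were chosen after they were seen, had 113 ± 9.21 CPM in naive H9 cells and 167 ± 23.6 CPM in primed H9 cells (SD, n = 3 each; log2 −0.57 ± 0.10; edgeR adjusted p = 0.000131). It had 117 ± 8.97 CPM in NT naive and 270.4 ± 8.97 CPM in NT primed H1 cells (log2 −1.20 ± 0.05; edgeR adjusted p = 2.06e-30). CCND1, a cyclin of the G1 phase, had the smallest adjusted p of the list in H9 (log2 −1.38 ± 0.10; edgeR adjusted p = 6.34e-10).

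In NT ectoderm the same 22 genes were split, 9 higher and 8 lower, against 30.7% and 32.1% of all genes, with a median log2 change of 0.06. LIN28A was at its highest level there. HMGA2 rose to 480.1 ± 19.4 CPM in ectoderm, against 270.4 ± 8.97 CPM in primed cells (log2 0.82 ± 0.05; edgeR adjusted p = 1.22e-13). With ZIC2 knockdown 7 were higher and 1 lower, against 15.3% and 12.8% of all genes, with a median of 0.06. INSR, the insulin receptor, was the gene that fell (log2 −0.64 ± 0.08; edgeR adjusted p = 3.58e-06). With ZNF8 knockdown 4 were higher and 6 lower, against 11.9% and 12.3% of all genes, with a median of −0.01. With CARHSP1 knockdown 2 were higher and 4 lower, against 10.3% and 9.87%, with a median of −0.05. HMGA1, a chromatin protein related to HMGA2, fell by 0.32 ± 0.04 on the log2 scale with CARHSP1 knockdown (edgeR adjusted p = 7.25e-08).

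**Figure D3:**
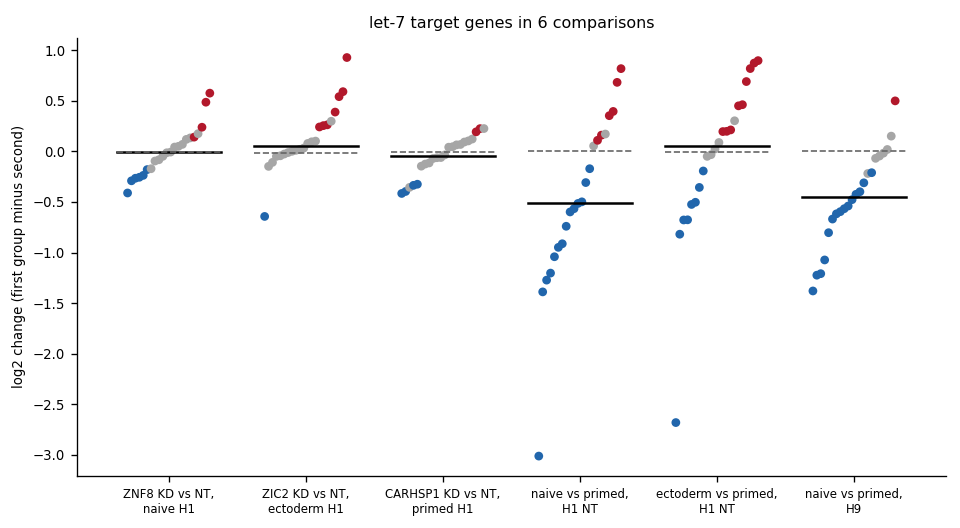
Log2 change of each of 22 let-7 target genes in 6 comparisons, first group minus second; red and blue points passed the test upwards and downwards, grey points did not, the black line is the list's median and the dashed line that of all genes tested. The medians in the naive against primed comparisons are −0.51 in H1 and −0.45 in H9, and the others lie within 0.06 of 0.

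Of 13 genes that process or degrade let-7 precursors, 4 were higher and 7 lower in naive H1 cells, against 35.0% and 36.1% of all genes tested, and 1 was higher and 5 lower in naive H9 cells, against 25.4% and 26.1%. The list's median log2 change was −0.19 in H1 and −0.20 in H9, against 0.00 for all genes in both. TRIM71, a LIN28 partner and let-7 target, was lower in naive cells of both lines, by 0.48 ± 0.13 on the log2 scale in H9 (edgeR adjusted p = 0.00482) and by 0.57 ± 0.04 in H1 (edgeR adjusted p = 1.96e-19). AGO2, the slicing Argonaute, was lower by 0.74 ± 0.13 in H9 (edgeR adjusted p = 9.79e-05) and by 0.79 ± 0.06 in H1 (edgeR adjusted p = 6.13e-19). TUT4, which adds uridines to precursors that LIN28 holds, was at 162 ± 4.06 CPM in NT ectoderm and 96.5 ± 4.63 CPM in NT primed cells (SD, n = 3 each; log2 0.74 ± 0.06; edgeR adjusted p = 3.17e-11). With ZIC2 knockdown it fell to 130.0 ± 10.8 CPM, against 162 ± 4.06 CPM in NT ectoderm (log2 −0.32 ± 0.07; edgeR adjusted p = 0.00136). Over the list 2 rose and 2 fell in ectoderm, against 30.7% and 32.1% of all genes, and 1 rose and 2 fell with ZIC2 knockdown, against 15.3% and 12.8%. With ZNF8 knockdown 4 rose and 1 fell, against 11.9% and 12.3%, and with CARHSP1 knockdown 2 rose, against 10.3%, and the other 11 were not called.

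Among the 5 let-7 host transcripts looked for, MIR99AHG, which holds let-7c, had 5.35 ± 0.534 CPM in NT naive H1 cells and 0.0598 ± 0.104 CPM in NT primed H1 cells (SD, n = 3 each; edgeR adjusted p = 2.64e-14). With ZNF8 knockdown it was at 2.35 ± 0.367 CPM, against 5.35 ± 0.534 CPM in NT naive cells (log2 −1.19 ± 0.27; edgeR adjusted p = 0.000820). It was filtered out in H9. A host transcript's level does not give that of the microRNA.

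YBX1 (chromosome 1, 42682427 to 42702349, plus strand), the main packaging protein of messenger RNA, had 1294, 1349 and 1523 CPM in NT ectoderm, 720, 693 and 721 CPM in NT naive cells and 1121, 1129 and 1086 CPM in NT primed cells. It was 1.57-fold lower in naive than in primed H1 cells (log2 −0.65 ± 0.04; edgeR adjusted p = 3.74e-24) and higher in ectoderm (log2 0.31 ± 0.05; edgeR adjusted p = 1.29e-05). With CARHSP1 knockdown it had 1255, 1294 and 1192 CPM, above all NT primed libraries, a rise of 1.12-fold (log2 0.17 ± 0.04; edgeR adjusted p = 0.00235). ZNF8 knockdown (log2 −0.01, 95% interval −0.11 to 0.08) and ZIC2 knockdown (log2 0.03, −0.11 to 0.16) gave no call. In H9 it had 896, 870 and 874 CPM in naive cells and 993, 910.2 and 925 CPM in primed cells, which do not overlap but missed the threshold (log2 −0.10 ± 0.08; edgeR adjusted p = 0.285). With GC and length trends removed this difference was −0.17 and passed (edgeR adjusted p = 0.00966).

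YBX1 has many processed pseudogenes that share stretches of its sequence. YBX1P1 shares 43.6% of its words of 50 bases with the longest complete YBX1 coding transcript, and YBX1P10 shares 29.4%. How reads that match several places were counted is not known from the labels. Pseudogenes held 5.68% to 8.37% of the counts on YBX1 and its copies in the H1 libraries and 2.10% to 2.62% in the H9 libraries. YBX1P10 averaged 44.5 CPM in NT primed H1 cells and 12.4 CPM in primed H9 cells, from separately scaled tables. YBX1P6 was at 0 in all H9 libraries and between 1.53 and 5.86 CPM in H1 libraries. The split of reads between YBX1 and its copies is thus uncertain. YBX1P10 was lower in naive than in primed H1 cells (log2 −0.59 ± 0.10; edgeR adjusted p = 1.50e-07).

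YBX3 (chromosome 12, 10699089 to 10723312, minus strand), a further packaging protein that also acts at tight junctions, was the member that rose in all 3 knockdowns. It had 220.2, 228 and 207 CPM in ZNF8 knockdown cells and 165, 159 and 168 CPM in NT naive cells (log2 0.41 ± 0.05; edgeR adjusted p = 2.37e-07). It had 287, 267 and 283 CPM in ZIC2 knockdown ectoderm and 215, 213 and 202 CPM in NT ectoderm (log2 0.42 ± 0.06; edgeR adjusted p = 2.37e-05). Knockdown and control libraries did not overlap in either. Summed fibroblast markers were higher in both knockdowns too, at 388 to 420 CPM with ZNF8 knockdown against 301 to 311 CPM in NT naive cells, and at 216 to 241 CPM with ZIC2 knockdown against 122 to 140.1 CPM in NT ectoderm. Of these 6 markers 3 reached 1 CPM in both naive H1 groups and 2 in both ectoderm groups, and their part in the YBX3 result was not tested. Most of the sum was COL1A2 in naive cells, at a mean of 393 CPM with ZNF8 knockdown and 296 CPM in NT cells. In ectoderm it was COL1A1 (113 CPM with ZIC2 knockdown and 53.8 CPM in NT cells) and COL1A2 (111 and 76.7 CPM). COL3A1, DCN and LUM were at 0 in ZNF8 knockdown cells and both ectoderm groups, and at most 0.0637 CPM in NT naive cells. With CARHSP1 knockdown the 6 markers summed to less, at 227 to 258 CPM, against 265 to 282 CPM in NT primed cells. The YBX3 rise there was small, at 306, 289 and 302 CPM, against 276, 258 and 280.2 CPM in NT primed cells (log2 0.14 ± 0.05; edgeR adjusted p = 0.0340). This last call was lost without CARHSP1 knockdown replicate 1 (edgeR adjusted p = 0.0687) or 3 (0.0775), without NT primed replicate 1 (0.0719), 2 (0.216) or 3 (0.0529), without the filter on low counts (0.0542), in 1 fit over all H1 groups (0.0797), and with GC and length trends removed (log2 0.07, 0.324).

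Across states of NT H1 cells YBX3 ran against YBX1 in ectoderm. It was lower in ectoderm than in primed cells (log2 −0.38 ± 0.06; edgeR adjusted p = 1.18e-06), and by 0.63 with GC and length trends removed. It was also lower in naive cells, by 1.66-fold (log2 −0.74 ± 0.05; edgeR adjusted p = 4.17e-21). In H9 it had 199, 201 and 193 CPM in naive cells and 183, 185 and 195 CPM in primed cells, which overlapped (log2 0.07, 95% interval −0.09 to 0.24; edgeR adjusted p = 0.469). With GC and length trends removed this was 0.23 and passed (edgeR adjusted p = 0.0129).

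YBX2 (chromosome 17, 7288252 to 7294615, minus strand), the germ cell paralogue, was scarce in H1 and higher in naive than in primed cells of both lines. It had 107, 112 and 94.9 CPM in naive H9 cells and 52.4, 44.3 and 52.9 CPM in primed H9 cells, a 2.10-fold rise with no overlap (log2 1.07 ± 0.10; edgeR adjusted p = 5.20e-08). It had 28.9, 25.6 and 29.2 CPM in NT naive H1 cells and 19.4, 20.4 and 23.4 CPM in NT primed H1 cells (log2 0.40 ± 0.12; edgeR adjusted p = 0.00211). With ZNF8 knockdown YBX2 fell to 15.5, 17.9 and 16.4 CPM, against the NT naive values just given, 1.70-fold lower (log2 −0.76 ± 0.11; edgeR adjusted p = 2.38e-06). Summed trophoblast and amnion markers were also lower, at 36.9 to 39.4 CPM in ZNF8 knockdown cells (3 of 7 at 1 CPM or more), against 97.7 to 103 CPM in NT naive cells (7 of 7), and their part was not tested. The fall put YBX2 below all NT primed libraries too, a comparison for which no test was made.

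In NT ectoderm YBX2 had 38.2, 30.7 and 33.4 CPM, above all NT primed libraries (log2 0.68 ± 0.12; edgeR adjusted p = 1.51e-05), and 1.02 on the log2 scale with GC and length trends removed. ZIC2 knockdown gave no call (log2 −0.07, 95% interval −0.32 to 0.18). With CARHSP1 knockdown it had 17.3, 14.7 and 20.2 CPM, overlapping NT primed cells (log2 −0.26 ± 0.13; edgeR adjusted p = 0.145), and it was called lower without CARHSP1 knockdown replicate 3 (edgeR adjusted p = 0.0441). The neighbouring SLC2A4, which overlaps YBX2 by 6 bases, had 1.79 CPM in NT naive and 6.21 CPM in NT primed H1 cells, the reverse of YBX2 there. It went the same way as YBX2 with ZNF8 knockdown, at 0.775 CPM, against 1.79 CPM in NT naive cells. In H9 its mean was also higher in naive cells, at 13.0 CPM, against 9.62 CPM in primed cells, with overlapping libraries. The part of SLC2A4 reads in the YBX2 counts was not tested.

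Of 12 germ cell genes, the setting in which YBX2 is best known, 4 to 5 passed the filter in each comparison, so counts among them are not counts of the list. DPPA3, a maternal factor also used as a naive marker, had 17.0 ± 1.97 CPM in naive H9 cells and 0.201 ± 0.103 CPM in primed H9 cells (SD, n = 3 each; edgeR adjusted p = 2.01e-12). In ZNF8 knockdown cells it had 5.01 ± 1.95 CPM, against 19.8 ± 2.72 CPM in NT naive cells (log2 −2.01 ± 0.19; edgeR adjusted p = 4.84e-11). DAZL, a germ cell RNA-binding protein, went the other way from YBX2 in H9, at 3.26 ± 0.959 CPM in naive and 23.9 ± 2.23 CPM in primed cells (log2 −2.86 ± 0.19; edgeR adjusted p = 2.67e-10).

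Among 19 genes for proteins found with YBX1 in messenger ribonucleoprotein, 6 were higher and 1 lower with CARHSP1 knockdown, against 10.3% and 9.87% of all genes tested, with a median log2 change of 0.11, against 0.00 for all genes. HNRNPU, a nuclear RNA-binding protein, rose by 0.25 ± 0.04 (edgeR adjusted p = 7.15e-06) and PABPC1, the main poly(A)-binding protein, fell by 0.14 ± 0.04 on the log2 scale (edgeR adjusted p = 0.00437). With ZNF8 knockdown 1 was higher and 2 lower, against 11.9% and 12.3% of all genes, and with ZIC2 knockdown 4 were higher and 4 lower, against 15.3% and 12.8%. In naive H9 cells 7 were lower, against 26.1% of all genes, and the other 12 were not called. In naive H1 cells 4 were higher and 10 lower, against 35.0% and 36.1%, and in ectoderm 10 were higher and 4 lower, against 30.7% and 32.1%. The median log2 change of the list was −0.17 in naive H9 cells, −0.19 in naive H1 cells and 0.21 in ectoderm, against 0.00 for all genes in each. IGF2BP1, an RNA-binding protein that is also a let-7 target, had 243 ± 9.34 CPM in NT naive and 468 ± 17.6 CPM in NT primed H1 cells (SD, n = 3 each; log2 −0.95 ± 0.04; edgeR adjusted p = 9.36e-29). In H9 it had 405 ± 36.3 CPM in naive and 589 ± 86.8 CPM in primed cells (log2 −0.54 ± 0.10; edgeR adjusted p = 0.000186).

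CARHSP1 (chromosome 16, 8852942 to 8869012, minus strand) was 7.81-fold lower with its own knockdown (log2 −2.97 ± 0.07; edgeR adjusted p = 8.36e-29). Its other H1 group means ranged from 116 to 199 CPM. It had 194, 200 and 202 CPM in NT ectoderm, 125, 146 and 137 CPM in NT naive cells and 152, 148 and 148 CPM in NT primed cells. It was 1.32-fold higher in ectoderm than in primed cells (log2 0.40 ± 0.06; edgeR adjusted p = 5.82e-07). In naive against primed H1 cells it was lower by 0.13 ± 0.06 on the log2 scale (edgeR adjusted p = 0.0301). It was not called without NT primed replicate 1 (edgeR adjusted p = 0.0960), 2 (0.0561) or 3 (0.0541), without NT naive replicate 1 (log2 −0.07, 0.267), without the filter on low counts (0.121), in 1 fit over all H1 groups (0.0651), and with GC and length trends removed (log2 −0.08, 0.172). DESeq2 gave no call either (adjusted p = 0.0686). In H9 it had 114, 112 and 106 CPM in naive and 118, 125 and 132 CPM in primed cells, which did not overlap but missed the threshold (log2 −0.18 ± 0.09; edgeR adjusted p = 0.0948). It passed with GC and length trends removed (log2 −0.19; edgeR adjusted p = 0.0136).

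The other 2 knockdowns lowered CARHSP1 slightly. It had 116, 121 and 109 CPM in ZNF8 knockdown cells, below all NT naive libraries (log2 −0.25 ± 0.06; edgeR adjusted p = 0.00281, and 0.0574 without NT naive replicate 2). It had 180, 166 and 173 CPM in ZIC2 knockdown ectoderm, below all NT ectoderm libraries (log2 −0.20 ± 0.06; edgeR adjusted p = 0.0215). The ZIC2 call was lost without ZIC2 knockdown replicate 2 (edgeR adjusted p = 0.127) or 3 (0.0661) and without NT ectoderm replicate 2 (0.0750) or 3 (0.0524). Antisense genes overlap CARHSP1, of which AC022167.2 averaged 1.05 to 2.12 CPM over the groups and AC022167.1 was at 0 in all libraries.

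Genes that act on CARHSP1 phosphorylation were followed as a list of 7, with the calcineurin subunits and the kinases DYRK2, AKT1 and RPS6KA1. With CARHSP1 knockdown 1 of the 7 was called, and it was lower, where 9.87% of all genes were, namely PPP3CA, a catalytic subunit of calcineurin (log2 −0.22 ± 0.06; edgeR adjusted p = 0.0117). PPP3CA was lower in all 6 comparisons, at 11.5 ± 0.737 CPM in naive H9 and 35.6 ± 5.96 CPM in primed H9 cells, and at 24.1 ± 1.06 CPM in NT naive and 95.6 ± 4.15 CPM in NT primed H1 cells (SD, n = 3 each). RPS6KA1 was higher in naive cells of both lines, by 1.05 ± 0.09 on the log2 scale in H9 (edgeR adjusted p = 6.80e-09) and by 0.50 ± 0.07 in H1 (edgeR adjusted p = 5.60e-10). AKT1 was lower in naive cells of both, by 0.52 ± 0.11 in H9 (edgeR adjusted p = 0.000630) and by 1.00 ± 0.07 in H1 (edgeR adjusted p = 1.31e-20). Over the list 1 was higher and 4 lower in naive H9 cells, against 25.4% and 26.1% of all genes, and 4 were higher and 3 lower in naive H1 cells, against 35.0% and 36.1%. The 3 called in ectoderm were lower, against 32.1% of all genes. With ZNF8 knockdown the 1 call was PPP3CA, lower, against 12.3%, and with ZIC2 knockdown 2 were higher and 1 lower, against 15.3% and 12.8%.

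CSDC2 (chromosome 22, 41560763 to 41577741, plus strand), the closest relative of CARHSP1, was near the limit of detection. It had 3 counts in all over the NT ectoderm libraries and 43 over the NT primed libraries, a CPM ratio of 0.0768 with a 95% interval of 0.0152 to 0.240 that covers counting error only (edgeR adjusted p = 0.000205). ZIC2 knockdown ectoderm had 18 counts against the 3 in NT ectoderm, a ratio of 5.28 (1.54 to 28.0), which was below the filter of the test. CARHSP1 knockdown cells had 27 counts and NT primed cells 43, a ratio of 0.466 (0.277 to 0.771), and this difference did not pass (edgeR adjusted p = 0.115). PMM1 overlaps the last 848 bases of CSDC2 on the other strand and had 6.81 CPM in NT primed cells, several times the level of CSDC2. PMM1 had 236 counts over the NT ectoderm libraries, where CSDC2 had 3, and 216 over the NT primed libraries, where CSDC2 had 43. Whether reads were counted by strand is not known from the labels. The part of PMM1 reads in the CSDC2 counts was not tested.

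Among further genes with cold shock domains, DIS3L, a cytoplasmic exosome nuclease, was lower in naive cells of both lines, by 0.44 ± 0.09 on the log2 scale in H9 (edgeR adjusted p = 0.000351) and by 0.63 ± 0.10 in H1 (edgeR adjusted p = 4.13e-08). DIS3L2, which degrades uridylated let-7 precursors, fell by 0.33 ± 0.12 in H9 (edgeR adjusted p = 0.0284) and rose by 0.33 ± 0.13 in H1 (edgeR adjusted p = 0.0177). RBM3, a cold-inducible RNA-binding protein without the domain, had 353 ± 9.84 CPM in NT naive and 163 ± 2.98 CPM in NT primed H1 cells (SD, n = 3 each; log2 1.11 ± 0.05; edgeR adjusted p = 3.43e-31). In H9 it had 124 ± 5.11 CPM in naive and 108 ± 3.81 CPM in primed cells and missed the threshold (log2 0.20 ± 0.09; edgeR adjusted p = 0.0550). CIRBP, the other such protein, was 198 ± 8.58 CPM in NT ectoderm and 89.2 ± 6.63 CPM in NT primed cells (log2 1.15 ± 0.07; edgeR adjusted p = 3.72e-15).

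**Figure D4:**
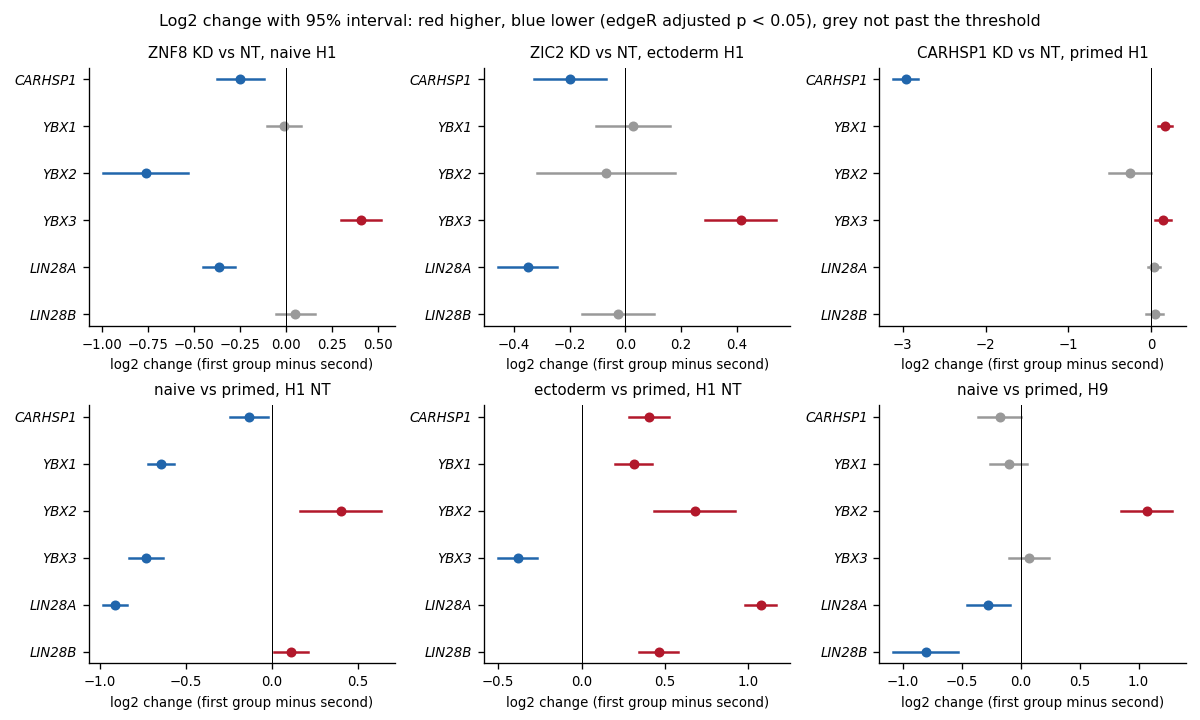
Log2 change of 6 members (CSDC2 is left out) in 6 comparisons, first group minus second, with 95% intervals; each panel has its own horizontal scale. YBX3 lies right of 0 in all 3 knockdown panels, by 0.41, 0.42 and 0.14, and LIN28A left of 0 in the ZNF8 and ZIC2 panels, by 0.37 and 0.35.

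The naive against primed change differed between the lines for 5 of the 7 members, tested as an interaction over the 12 libraries. Here 26.2% of all genes had a more positive change in H9 than in H1 and 23.6% a more negative one. For LIN28B the change was −0.80 in H9 and 0.11 in H1 (difference −0.92 ± 0.15; edgeR adjusted p = 5.01e-06), and the difference was −0.75 with GC and length trends removed. For YBX3 the changes were 0.07 in H9 and −0.74 in H1 (difference 0.80 ± 0.09; edgeR adjusted p = 1.84e-08), and the difference was 1.00 with those trends removed. For YBX2 they were 1.07 in H9 and 0.40 in H1 (difference 0.66 ± 0.15; edgeR adjusted p = 0.000425), and for LIN28A −0.27 in H9 and −0.91 in H1 (difference 0.63 ± 0.09; edgeR adjusted p = 8.40e-07). For YBX1 they were −0.10 in H9 and −0.65 in H1 (difference 0.54 ± 0.08; edgeR adjusted p = 1.48e-06). CARHSP1 gave no call (difference −0.05, 95% interval −0.27 to 0.16). The naive cells differed in their markers too, from separately scaled tables. The 7 naive markers summed to 101 to 111 CPM in naive H9 cells and 322 to 338 CPM in NT naive H1 cells. DPPA5 went the other way, at a mean of 29.3 CPM in naive H9 and 7.57 CPM in NT naive H1 cells. Line, table, naive marker level, and the NT construct and doxycycline of the labels all differ between the 2 sets and cannot be told apart.

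**Figure D5:**
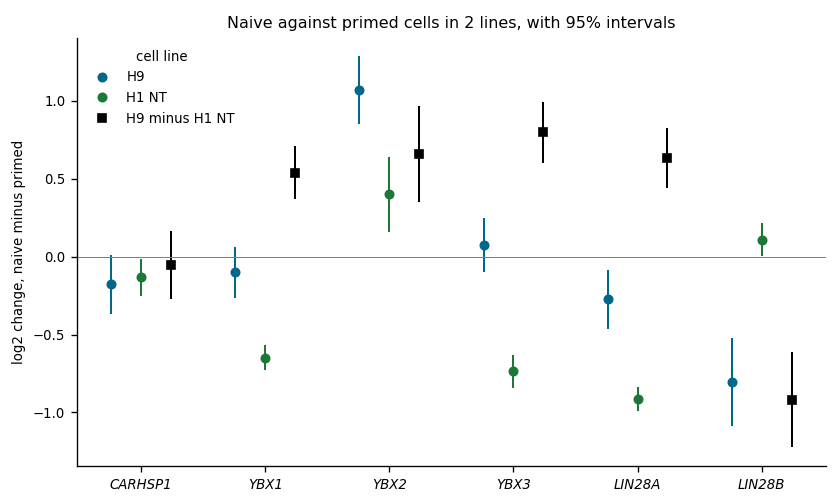
Log2 change in naive against primed cells of H9 and of NT H1, and the difference H9 minus H1, for 6 members with 95% intervals. The 2 lines lie apart for LIN28B, at −0.80 in H9 and 0.11 in H1, and close together for CARHSP1, at −0.18 in H9 and −0.13 in H1.

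Over the 18 H1 libraries, the genes whose levels ran most like each member were found by Pearson's r of log2(CPM + 1) among 11733 genes. These values describe libraries that share states and constructs, so most of the likeness is between groups. For LIN28A they were STMN2 (r = 0.994), PPP1R1B (0.993) and PSIP1 (0.993), and for LIN28B CNN3 (0.955), OGA (0.954) and TPR (0.954). For YBX1 they were MCM3 (0.988), HNRNPR (0.987) and CCT7 (0.985), for YBX2 BOC (0.909), PKDCC (0.908) and DCLRE1C (0.906), and for YBX3 CCND2 (0.979), EPHX1 (0.972) and SLC1A5 (0.966). For CARHSP1, whose values are set mostly by its knockdown, they were SNAI1 (0.934), ZNF292 (0.898) and MED13 (0.885). The genes named depend on the measure. Spearman's rho put other genes first for LIN28A (SERBP1, HMMR and CNTRL), YBX3 (ARHGAP23, CUEDC1 and SLC4A7) and CARHSP1 (ZMYM3, THG1L and CITED2). It kept only MCM3 for YBX1, only TPR for LIN28B, and BOC and DCLRE1C for YBX2. Among the members, YBX1 and LIN28A were most alike (Pearson's r = 0.948). STMN2, whose H1 group means ran from 2.94 to 325 CPM, was at 1.94 CPM in naive and 2.65 CPM in primed H9 cells. LIN28A averaged 2154 CPM in naive and 2601 CPM in primed H9 cells.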

How the data were processed

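RNA was measured in 24 libraries from 8 groups of 3. The authors deposited 2 tables of raw read counts per gene, 1 for each line, with gene lengths; 27 columns that match no sample label were not used. Reads were aligned with HISAT2 to GRCh38, per the submitters' processing notes; for the counting tool, its annotation and the use of strand, the sources used here give nothing. Library preparation was TruSeq Stranded mRNA, per the labels' protocols. Depth was 6756704 to 20773963 counts a library.

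From these counts, genes were filtered with filterByExpr and tested with edgeR 4.0.16 (R 4.3.3; TMM scaling, quasi-likelihood F test, 1 fit per pair of groups, Benjamini-Hochberg adjustment over all genes tested, threshold 0.05). The H9 and H1 changes were compared as an interaction over 12 libraries. SE is the log2 change divided by the square root of F. The test recovered changes placed in simulated data, where every gene was given the same spread. That spread was smaller than the one fitted in the H9, ZIC2 knockdown and ectoderm comparisons and in the interaction, so the simulation was easier than those data. CPM uses 1 TMM scaling per table, so CPM of H1 and H9 are scaled separately. TPM uses the deposited lengths. Alternatives were RLE size factors, DESeq2 1.42.0, no filter, a replicate block, GC and length trends removed, 1 fit over all H1 groups, other gene lengths and each library left out; the length of the longest coding transcript was added after seeing the data. Gene models are from GENCODE 29 and sequences of microRNAs from RefSeq. Intervals of count ratios cover counting error only.

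The members and gene lists were chosen with earlier results of these data known. Named genes were all members, their pseudogenes and overlapping genes, and the 3 knockdown targets. Up to 4 genes a list and comparison with the smallest adjusted p were named as well. So were the 3 genes most like each member by Pearson's r, and some of those by Spearman's rho. HMGA2 in H9 is said to be chosen after its values were seen. Single genes of the marker lists were named outside these rules and are to be read as chosen in that way too. A let-7 host, MIRLET7DHG, was not matched by symbol. Some genes of the lists are not reported here by name. Replicate numbers recur between groups, but in no comparison did the correlation of same-numbered libraries exceed 0.1 in every pair, so no pairing was used.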

Additional observations from a re-analysis of the deposited data

Results flagged for a closer look

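The naive against primed change differed between H9 and NT H1 cells for 5 members, by the interaction test in edgeR. The difference, H9 minus H1 on the log2 scale, was 0.54 for YBX1, 0.66 for YBX2, 0.80 for YBX3, 0.63 for LIN28A and −0.92 for LIN28B. Each stayed called with the same sign under all alternatives run, with ranges over the left-out libraries of 0.51 to 0.59 for YBX1, 0.57 to 0.73 for YBX2, 0.77 to 0.84 for YBX3, 0.55 to 0.71 for LIN28A and −1.08 to −0.76 for LIN28B. Of all genes tested, 26.2% differed upwards and 23.6% downwards, so such a difference was common. The labels give an NT construct and doxycycline for these H1 cells and neither for H9 cells. These, the separate count tables, and the lower naive and higher primed marker sums of naive H9 cells cannot be told apart from the line.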

How the results depend on the processing

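Of 639 alternative values of member changes, 577 kept their direction and their side of the threshold, 35 fell short of it, 7 passed it and 20 changed sign, none of the 20 called. With GC and length trends removed, the members called in naive against primed H9 cells went up to 6, against 3 without, also 6 with the replicate block. In naive against primed H1 cells the members called fell to 4, against 6, with DESeq2, no filter, 1 fit over all H1 groups and GC and length trends removed, each of which ended the CARHSP1 and LIN28B calls. Removing GC and length trends changed the sign of LIN28A (−0.0134, with block −0.0139) and LIN28B (−0.0413, with block −0.0416) with CARHSP1 knockdown. It also did so for YBX1 with ZNF8 knockdown (0.0036, with block 0.0034) and LIN28B with ZIC2 knockdown (0.0679, with block 0.0648). The cause was not tested. LIN28A exceeded YBX1 in 5 libraries with the longest annotated or the longest coding transcript, against 22 with deposited lengths, because YBX1 is then divided by a shorter length. Leaving out each library gave 2045 to 3410 genes called with CARHSP1 knockdown, against 3152, with 2096 without CARHSP1 knockdown replicate 2 and 2045 without NT primed replicate 1. It gave log2 ranges across 0 of −0.0103 to 0.0804 (LIN28B, CARHSP1 knockdown), −0.0417 to 0.0289 (YBX1) and −0.1208 to 0.4134 (CSDC2) with ZNF8 knockdown, −0.0237 to 0.0983 (YBX1), −0.1479 to 0.0154 (YBX2) and −0.0709 to 0.0296 (LIN28B) with ZIC2 knockdown, and −0.1322 to 0.3774 (CSDC2, naive H1). The replicate block gave 3404 genes with CARHSP1 knockdown and ended the call of LIN28B in naive H1 cells (edgeR adjusted p = 0.0604). Same-numbered libraries correlated by 0.0303, 0.0394 and 0.0303 with CARHSP1 knockdown, where all 6 were most like their own number, and by −0.194 to 0.2349 over the comparisons. Without the filter the median log2 change of all genes was −0.105 in ectoderm against primed cells, against −0.0015 with it. Depth limits CSDC2, with 3 to 71 counts a group.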
